A study of Rattus norvegicus with 16 samples.

Results

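The receptors through which hormones, somatostatin, catecholamines, galanin and prostaglandin E2 act on the pancreatic β cell were described in rat INS1 β cells that overexpress the transcription factor Pax5. The set was chosen by gene symbol and holds 10 receptor genes: Glp1r, Gipr and Gcgr, which couple to Gs, Ptger3, Adra2a, Sstr3, Sstr5 and Galr1, which couple to Gi, and Cckar and Cckbr, which couple to Gq. A transcript cluster, the unit that the array reports, was named for 9 of the 10 genes among 23188 clusters in all, while Cckar was not analysed here. Each of the 9 symbols had a single named cluster. INS1 β cells (832/13) are a rat insulinoma line, so all arrays come from 1 cell line. One group (n = 8 arrays) was transduced with a lentivirus for GFP and the other (n = 8 arrays) with a lentivirus for Pax5, both at an MOI of 1.25 for 24 h, followed by 48 h in fresh medium, and cells were collected at 72 h. The medium held 11.1 mM glucose. In the study the lentiviral Pax5 was HA tagged and driven by the human PGK1 promoter, and an untagged form was used to repeat secretion experiments. The study's main text does not state which form was used for the arrays. By the labels there were 8 numbered experiments of 1 GFP and 1 Pax5 array. Separate cultures or passages are not mentioned, so p reflects only how far these experiments differ, which may be technical. Values are log2 expression, and p was adjusted over all 23188 clusters.

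A Gs-coupled receptor activates adenylyl cyclase and raises cyclic AMP, which strengthens insulin secretion in the presence of glucose. GLP-1 and GIP, the incretin hormones of the gut, and glucagon of the α cell act on the β cell in this way. A Gi-coupled receptor lowers cyclic AMP and, through the βγ subunits, opens potassium channels and restrains exocytosis. Noradrenaline, somatostatin, galanin and prostaglandin E2 inhibit insulin secretion through such receptors, and a Gq-coupled receptor acts through phospholipase C and calcium.

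Promoters are shown for 4 receptors that changed, a pair from each direction, because Pax5 is a transcription factor and all 4 are rich in CpG dinucleotides, which are in capitals. Each line gives the 250 bases before the annotated transcription start, 5′ to 3′ on the plus strand, from RefSeq (build GRCr8). The Gcgr sequence is chr10:106306553-106306802 and that of Glp1r is chr20:8973143-8973392. The Adra2a sequence is chr1:263066530-263066779 and that of Ptger3 is chr2:249264832-249265081.
Gcgr: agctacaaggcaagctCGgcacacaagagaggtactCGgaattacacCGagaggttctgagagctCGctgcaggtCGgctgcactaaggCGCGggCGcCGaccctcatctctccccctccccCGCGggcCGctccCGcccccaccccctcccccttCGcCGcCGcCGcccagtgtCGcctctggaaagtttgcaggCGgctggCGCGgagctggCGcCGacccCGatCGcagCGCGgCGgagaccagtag
Glp1r: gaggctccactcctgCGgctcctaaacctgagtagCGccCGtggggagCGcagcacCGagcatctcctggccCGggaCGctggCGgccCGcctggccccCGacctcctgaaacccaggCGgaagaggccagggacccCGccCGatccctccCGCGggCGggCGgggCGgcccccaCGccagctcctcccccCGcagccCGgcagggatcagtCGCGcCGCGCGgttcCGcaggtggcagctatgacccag
Adra2a: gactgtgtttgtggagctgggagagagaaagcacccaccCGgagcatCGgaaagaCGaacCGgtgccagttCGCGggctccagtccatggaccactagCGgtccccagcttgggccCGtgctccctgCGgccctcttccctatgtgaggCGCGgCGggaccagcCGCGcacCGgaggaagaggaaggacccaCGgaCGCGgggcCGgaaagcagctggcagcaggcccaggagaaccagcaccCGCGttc
Ptger3: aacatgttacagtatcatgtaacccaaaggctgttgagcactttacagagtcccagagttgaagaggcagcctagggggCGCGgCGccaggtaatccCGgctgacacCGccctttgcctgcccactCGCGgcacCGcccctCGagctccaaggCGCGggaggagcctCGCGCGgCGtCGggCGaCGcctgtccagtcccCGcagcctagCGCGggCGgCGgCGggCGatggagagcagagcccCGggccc
These windows hold 28 CpG in Gcgr, 27 in Glp1r, 21 in Adra2a and 26 in Ptger3. A promoter window that adds 50 bases after the start was given for 8 of the 10 genes (9 windows, with 2 for Gcgr), and none for Gipr or Cckar. Across these 9 windows of 300 bases the GC content was 55.7% to 76% and the number of CpG was 11 to 35. The Gcgr window shown is the richer of its 2, with 35 CpG in 300 bases against 14. Cckbr and Sstr5, which did not pass the test below, held 19 and 18, and Galr1 and Sstr3, which did, 17 and 11. Over all 33469 promoter windows the lower and upper quartiles were 44.7% and 60.3% GC and 3 and 19 CpG. The letters GCGTGAC, the core of the motif bound by the paired domain of PAX5, were found on either strand in 0 of the 9 windows and in 669 of all 33469 (2.00%).

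The transgene, Pax5, averaged 7.93 ± 0.409 in GFP and 17.26 ± 0.191 in Pax5 arrays (log2 values, SD, n = 8 each), and was higher in 8 of 8 experiments. Array medians lay between 6.98 and 7.01. The β cell markers Ins1, Ins2, Iapp and Pdx1 were bright, at mean log2 values from 13.09 to 18.27 over the 16 arrays. Of 7 measured β cell markers 1 rose (Iapp, by 0.46) and 1 fell (the zinc transporter gene Slc30a8, by 0.40), and Ucn3 was low (6.32 in GFP arrays). Of 3 measured markers of α cells, Gcg was among the brightest clusters (mean log2 value 17.72) while Irx2 (5.36) and Ttr (6.44) were low, and the δ cell hormone gene Sst was at 4.84. All 3 δ cell markers were dim, and Rbp4 among them rose by 0.33. Of the 12 markers of exocrine, fibroblast, endothelial and immune cells that were measured, none changed at an adjusted p under 0.05 in limma and all had a mean log2 value under 7. To judge dim values, 33 clusters of olfactory receptor genes, which β cells are taken not to express, were used. Their median log2 value was 4.72 and their 95th percentile was 6.11, a level that 41.6% of all clusters lay below. Of the 12 exocrine, fibroblast, endothelial and immune markers, Amy2a3 (6.68) and Cd68 (6.24) lay above this level and the rest below it. Probes differ in brightness, so this level only marks where expression cannot be told from that of genes taken as silent.

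With Pax5, Gcgr, Sstr3 and Glp1r rose and Ptger3, Adra2a and Galr1 fell, while Gipr, Sstr5 and Cckbr did not pass the test (limma, adjusted p under 0.05). Gcgr rose 1.86-fold and Adra2a fell 1.36-fold, both without overlap between the groups, while the fall of Ptger3 (1.64-fold as measured) ended at a dim level that limits its size. Thus 6 of 9 receptors were called, where 30.7% of all 23188 clusters were called in either direction. This background holds clusters under the olfactory receptor level, 41.6% of all, while 2 of the 9 receptors had a mean under it. In the methods' paired t-test Glp1r and Galr1 lost their calls. Of the 9, 3 were higher (14.6% of all clusters) and 3 were lower (16.1% of all clusters). By coupling, 2 of 3 Gs-coupled receptors rose and none fell (median log2 fold change 0.37), and of 5 Gi-coupled receptors 1 rose and 3 fell (median -0.32). The median over all clusters was 0.00125, and the median absolute change was 0.13. With so few receptors, chosen with earlier results of these data known, these counts and medians are only a description. The RNA is from whole cultures, so fewer cells that express a receptor and less RNA per cell cannot be told apart.

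**Figure D1:**
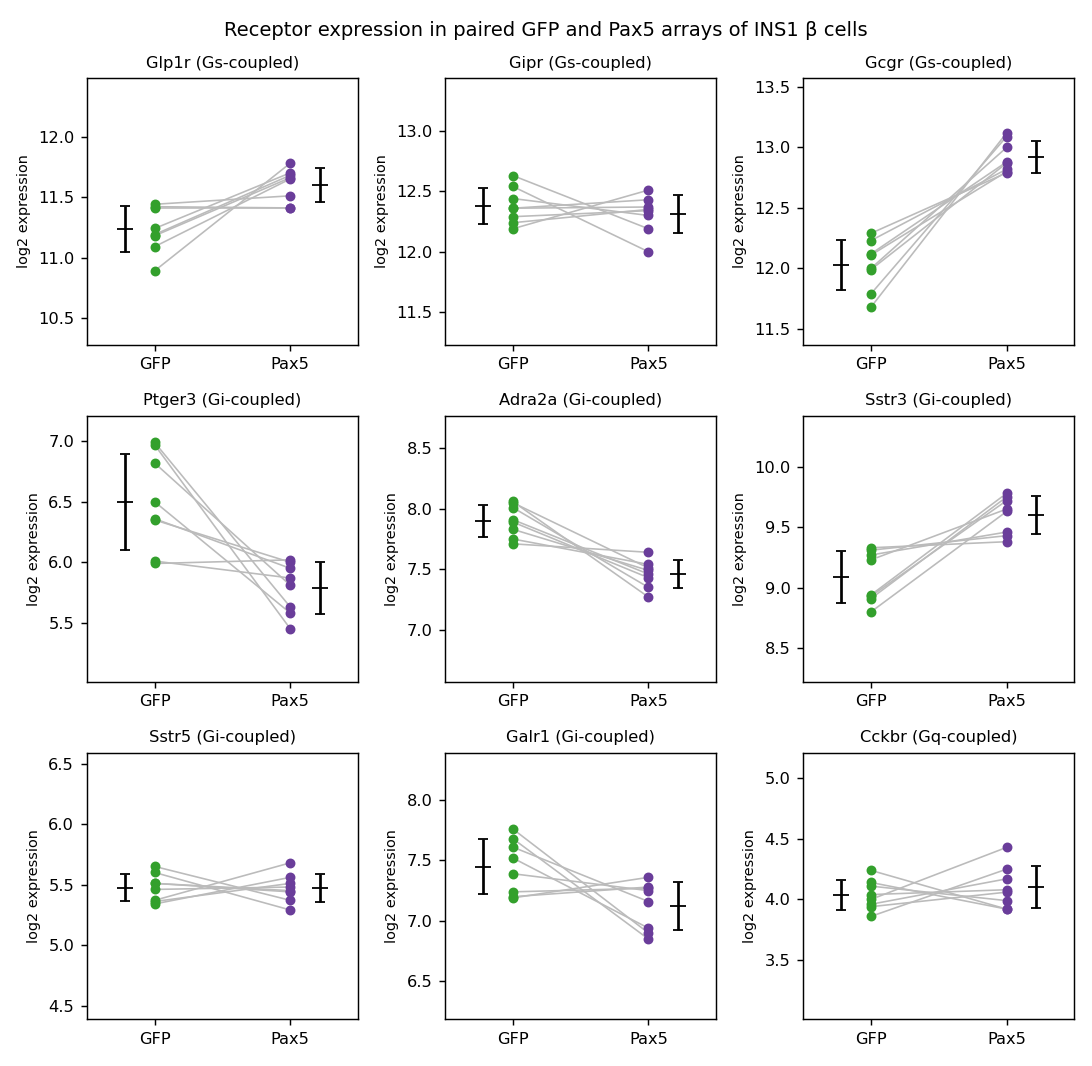
Log2 expression of 9 receptors in GFP (green) and Pax5 (purple) arrays, with a grey line joining both arrays of an experiment and black marks for the mean and SD of 8 arrays. The y axes span the same range of 2.2 log2 units but start at different levels, and the groups are apart for Gcgr, Adra2a and Sstr3.

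Gcgr encodes the receptor for glucagon. Its log2 value ranged from 11.68 to 12.29 (median 12.06) in GFP arrays and from 12.79 to 13.12 (median 12.88) in Pax5 arrays. The groups did not overlap, which held for 3 of the 9 receptors and for 16.7% of all clusters. The lowest GFP arrays, those of experiments 1 and 2, were paired with the highest Pax5 arrays, an opposition within experiment numbers that was seen over all clusters and is not particular to Gcgr. The mean rose from 12.03 ± 0.209 to 12.92 ± 0.131 (SD, n = 8 each), which is 0.89 on the log2 scale (SE 0.0991, 95% interval 0.684 to 1.11, adjusted p = 4.66e-06 from limma). The rise was seen in 8 of 8 experiments and ranged from 0.50 to 1.44 (exact permutation test in which signs are flipped, 2-sided, p = 0.00781, which no 8 pairs can go below). The same sign in 8 of 8 experiments was seen for 3 of the 9 receptors and for 20.4% of all clusters.

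Glp1r encodes the receptor for GLP-1, the target of incretin drugs. It ranged from 10.89 to 11.44 (median 11.22) in GFP arrays and from 11.41 to 11.78 (median 11.66) in Pax5 arrays. The groups overlapped, with Pax5 arrays of experiments 2 and 5 at 11.41, within the range of the GFP arrays. The log2 fold change was 0.37 (SE 0.0963, 95% interval 0.163 to 0.572, adjusted p = 0.00821 from limma), or 1.29-fold. It was positive in 6 of 8 experiments, 0.00 in experiment 2 and -0.01 in experiment 5 (exact permutation test, 2-sided, p = 0.03125). Experiment 3 differed by 0.07, and those of experiments 1, 4, 6, 7 and 8 lay between 0.46 and 0.89. In the methods' paired t-test, with the same adjustment, the call was lost (adjusted p = 0.0522).

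Gipr encodes the receptor for GIP, the other incretin. Its log2 value was between 12.19 and 12.63 (median 12.36) in GFP arrays and between 12.00 and 12.51 (median 12.35) in Pax5 arrays, so the groups overlapped widely. The log2 fold change was -0.07 (SE 0.0909, 95% interval -0.263 to 0.123, adjusted p = 0.614 from limma). Higher values with Pax5 were seen in 5 of 8 experiments, and the lowest differences were those of experiments 7 (-0.44) and 8 (-0.54). The interval reaches down to a log2 fold change of -0.263.

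The 3 Gs-coupled receptors belong to the same receptor family, and their changes were set against each other within experiments, with p adjusted over 4 pairs of related receptors (exact 2-sided sign flips). Gcgr rose more than Glp1r by 0.53 log2 units (SE 0.158, adjusted p = 0.0156, 8 of 8 experiments, exact test). The change of Gcgr exceeded that of Gipr by 0.96 (SE 0.164, adjusted p = 0.0156, 8 of 8 experiments, exact test). The change of Glp1r exceeded that of Gipr by 0.44 (SE 0.165, adjusted p = 0.0313, 6 of 8 experiments, exact test). With 1 experiment left out, 6 of the 8 values for Glp1r against Gipr had an adjusted p of 0.0625. The exact test then has fewer arrangements.

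Ptger3 is the gene for the prostaglandin E2 receptor EP3. It ranged from 5.99 to 6.99 (median 6.43) in GFP arrays and from 5.45 to 6.02 (median 5.84) in Pax5 arrays. The groups overlapped, since the GFP arrays of experiments 1 and 2 were as low as the highest Pax5 arrays. The mean fell from 6.50 ± 0.397 to 5.79 ± 0.212 (SD, n = 8 each), which is -0.71 on the log2 scale (SE 0.149, 95% interval -1.03 to -0.393, adjusted p = 0.00168 from limma). It was lower with Pax5 in 7 of 8 experiments, with differences from -1.52 in experiment 6 to 0.03 in experiment 1 (exact permutation test, 2-sided, p = 0.0156). All 8 Pax5 arrays lay under the olfactory receptor level of 6.11, as did GFP arrays of experiments 1 and 2, so the low signal limits the size of the fall, which may be larger than measured.

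Adra2a, which encodes the α2A-adrenergic receptor, the receptor through which noradrenaline inhibits insulin secretion, fell in 8 of 8 experiments. Its log2 value was 7.71 to 8.06 (median 7.90) in GFP arrays and 7.27 to 7.64 (median 7.48) in Pax5 arrays, and the groups did not overlap. The log2 fold change was -0.44 (SE 0.0812, 95% interval -0.613 to -0.267, adjusted p = 0.000595 from limma), a fall of 1.36-fold. Differences ran from -0.79 in experiment 5 to -0.07 in experiment 2 (exact permutation test, 2-sided, p = 0.00781).

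Sstr3, which encodes a somatostatin receptor, was the 1 Gi-coupled receptor that rose. Its log2 value ranged from 8.80 to 9.33 (median 9.09) in GFP arrays and from 9.38 to 9.78 (median 9.64) in Pax5 arrays. The groups did not overlap, by a margin of 0.05 between the highest GFP and the lowest Pax5 array, both of experiment 1. The log2 fold change was 0.51 (SE 0.103, 95% interval 0.291 to 0.729, adjusted p = 0.00124 from limma), or 1.42-fold. It was positive in 8 of 8 experiments (exact permutation test, 2-sided, p = 0.00781), small in experiments 1, 2 and 5 (0.05, 0.19 and 0.12) and between 0.79 and 0.84 in experiments 4, 6, 7 and 8.

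Sstr5, another somatostatin receptor gene, was dim, with a log2 value of 5.34 to 5.65 in GFP arrays and 5.29 to 5.68 in Pax5 arrays, all under the olfactory receptor level. Its log2 fold change was -0.0025 (95% interval -0.172 to 0.167, adjusted p = 0.986 from limma). The change of Sstr3 exceeded that of Sstr5 by 0.51 (SE 0.173, adjusted p = 0.0313, 7 of 8 experiments, exact test). The dim signal of Sstr5 limits what this difference can show. With 1 experiment left out, 7 of its 8 values had an adjusted p of 0.0625 in an exact test with fewer arrangements.

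Galr1, the gene for a galanin receptor, ranged from 7.19 to 7.76 (median 7.46) in GFP arrays and from 6.85 to 7.36 (median 7.21) in Pax5 arrays, and the groups overlapped. Its log2 fold change was -0.32 (SE 0.115, 95% interval -0.566 to -0.0787, adjusted p = 0.0433 from limma), or 1.25-fold lower. The fall came from 5 of 8 experiments, with differences down to -0.86 in experiment 6, while experiments 1, 3 and 4 were higher with Pax5 by 0.03, 0.17 and 0.08. It did not pass the exact permutation test (2-sided, p = 0.0938) or the methods' paired t-test (adjusted p = 0.156). The limma call was lost without experiment 2 (adjusted p = 0.116), 5 (0.0862), 6 (0.125) or 8 (0.0963).

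Cckbr, which encodes the receptor for gastrin and cholecystokinin, was among the dimmest clusters, with log2 values of 3.86 to 4.24 in GFP arrays and 3.92 to 4.43 in Pax5 arrays. Its log2 fold change was 0.07 (95% interval -0.121 to 0.254, adjusted p = 0.624 from limma). The signal does not allow a statement on its expression.

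**Figure D2:**
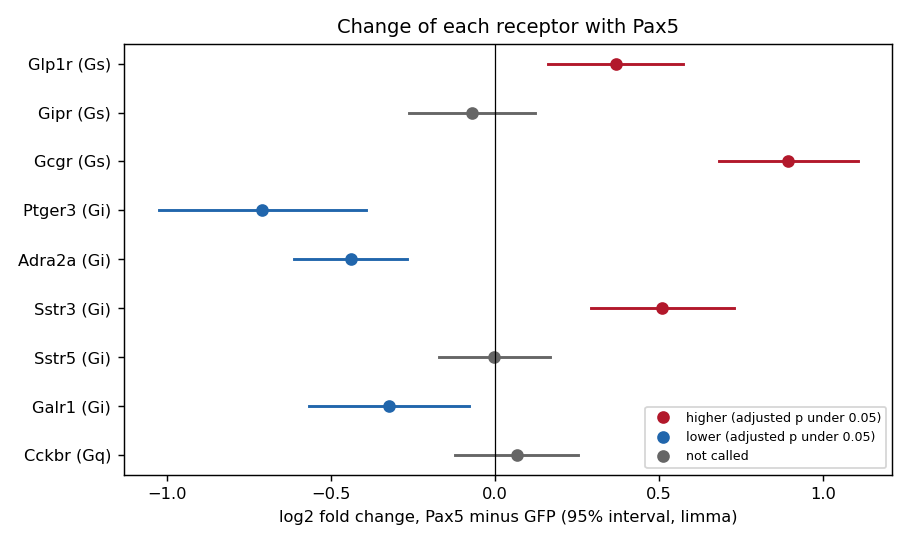
Log2 fold change (Pax5 minus GFP, x axis) of each receptor with its 95% interval from limma, grouped by G protein coupling and coloured by call. Intervals of Glp1r, Gcgr and Sstr3 lie above 0 and those of Ptger3, Adra2a and Galr1 below it.

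The differences of single experiments are given as measured. Over all clusters, deviations from the group mean were opposed within a number (r from -0.749 to -0.704). When the GFP array lay above its group mean, the Pax5 array of that number tended to lie below its own. This widens the spread of the differences between numbers, and single ones can be larger or smaller for it. In experiment 2 Gcgr rose by 1.44 and Galr1 differed by -0.83, while Glp1r (0.00), Adra2a (-0.07) and Ptger3 (-0.14) were close to their GFP array. In experiment 6 Ptger3 differed by -1.52, Galr1 by -0.86 and Sstr3 by 0.83. For 9 of 9 receptors no array stood apart from the other seven of its group by Dixon's criterion.

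**Figure D3:**
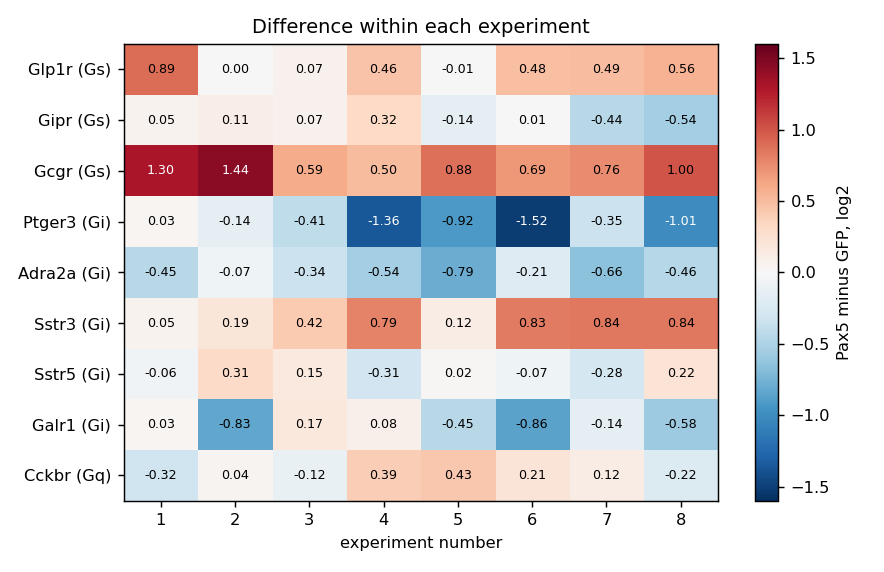
Differences in log2 expression between the Pax5 and the GFP array of each experiment (columns) for 9 receptors (rows), with red for higher and blue for lower with Pax5. Gcgr and Sstr3 are above 0 and Adra2a below 0 in all 8 experiments, while Glp1r, Ptger3 and Galr1 vary in size between experiments.

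The named genes whose log2 values followed those of Gcgr most closely over the 16 arrays were Slc35d3 (Pearson r = 0.988), Lingo3 (0.978) and the glutamyl transferase gene Ggt1 (0.975), all 3 higher with Pax5. For Adra2a these were Trim27 (0.943), the bromodomain gene Brd2 (0.943) and the cyclin gene Ccnd3 (0.933), all lower with Pax5. These correlations hold the difference between the groups and are a description.

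The genes around the receptors were followed in 9 lists, from the relatives and ligands of the receptors to cyclic AMP targets. Of 139 listed genes 129 were measured, and 32 of these rose and 36 fell (limma, adjusted p under 0.05). Over all 23188 clusters 14.6% rose and 16.1% fell, 30.7% together, which is the background for the count of each list. This background holds clusters under the olfactory receptor level, 41.6% of all, while the lists differ in their share of dim genes. Of the genes that cyclic AMP induces 3 of 16 were dim, and of the paralogs of the Gi-coupled receptors 9 of 12. The lists were also chosen with earlier results of these data known, so the counts are a description. The share called was 25% to 44.4% in the lists of other class B receptors, paralogs of the Gi-coupled receptors, ligands, Gβ and Gγ subunits and RGS proteins, and 52.9% to 93.8% in the other lists. Of 10 measured other class B peptide hormone receptors 4 rose and none fell (median log2 fold change 0.13), or 40% against 30.7% of all clusters. At a threshold of 0.01, 2 rose. In the methods' paired t-test, without the experiment block and after quantile normalization, 1 of the 10 was called lower. Calcrl, which forms the receptors for adrenomedullin and CGRP, rose by 0.81 (SE 0.134). Vipr1, a receptor for VIP and PACAP, rose by 0.43, the PACAP receptor gene Adcyap1r1 by 0.35 and the secretin receptor gene Sctr by 0.26. The adjusted p of these 4 genes from limma ran from 0.00023 to 0.0244. Sctr lost its call without experiment 2, 5 or 7 (adjusted p up to 0.0781) and in the methods' paired t-test, and Adcyap1r1 in the latter.

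Of 12 measured paralogs of the Gi-coupled receptors 2 rose and 1 fell, and 9 of the 12 were dim. They were listed as relatives of these receptors, and their own coupling was not considered here. The galanin receptor gene Galr2 rose by 0.30 (SE 0.0788, adjusted p = 0.00857 from limma) in 8 of 8 experiments, opposite in sign to Galr1. Ptgir, a prostacyclin receptor gene with a dim signal, rose by 0.32, and the somatostatin receptor gene Sstr1 fell by 0.32 (SE 0.0766, adjusted p = 0.00499 from limma), opposite in sign to Sstr3. Ptger1, a dim prostaglandin E2 receptor gene, differed by -0.26 and did not pass (adjusted p = 0.0542 from limma), though it did without experiment 3 or 8 (adjusted p down to 0.0163).

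Among 16 ligand genes and the enzymes that make ligands 4 rose and 3 fell (median 0.08). Gcg, which encodes glucagon and GLP-1, rose from 17.35 ± 0.111 to 18.09 ± 0.118 (SD, n = 8 each), by 0.74 on the log2 scale (adjusted p = 3e-06 from limma), in the same arrays in which Gcgr and Glp1r rose. Cck, which encodes cholecystokinin, rose by 2.79 (SE 0.102, adjusted p = 2.45e-11 from limma), whereas its receptor gene Cckbr was at a dim level in both groups. The gastrin gene Gast differed by 0.36 and did not pass (adjusted p = 0.0877 from limma), though it did without experiment 4 or 7 (adjusted p down to 0.0417). Cort, which encodes the somatostatin relative cortistatin, rose by 0.28 with a dim signal, and Sst (0.01), Gip (0.12) and the galanin gene Gal (0.03) were not called. On the side of prostaglandin E2, Ptges3, named as a prostaglandin E synthase and known as a cochaperone of HSP90, fell by 0.41 (SE 0.0807). Ptges2, another gene named so, fell by 0.30, while Ptges, an inducible prostaglandin E synthase gene, rose by 0.22 at a dim level (adjusted p = 0.0143 from limma, 8 of 8 experiments), a call lost without experiment 6 (adjusted p up to 0.0501). Ptges and Ptges2 were picked after their values were seen. Ptgs2, the gene for COX-2, was dim and fell by 0.19 (adjusted p = 0.0365 from limma), a call lost when any experiment but the fifth was left out (adjusted p up to 0.0993).

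Of 13 Gα genes 5 rose and 3 fell. Gnai1, which encodes an inhibitory Gα subunit of Gi, fell by 0.57 (SE 0.0855) and Gna13 by 0.49. Gnao1, for the Gα subunit of Go, rose by 0.32 and Gnaq, for that of Gq, rose by 0.39. The other 4 called Gα genes, and Gnai2, were picked after their values were seen. Gnas, which encodes the Gα subunit of Gs, rose by 0.18 (SE 0.0616, adjusted p = 0.0327 from limma) in 8 of 8 experiments, a call lost without experiment 2, 3, 4, 5, 6 or 7 (adjusted p up to 0.0865). Gnaz, which encodes a further Gα subunit of the Gi family, rose by 0.28 (adjusted p = 0.00761 from limma) in 8 of 8 experiments, and Gna12 rose by 0.30. Gnai3 fell by 0.27 and Gnai2 differed by -0.04 (adjusted p = 0.66 from limma), so called genes of the Gi family moved both ways. Of 16 Gβ and Gγ genes 3 rose and 3 fell (37.5%, against 30.7% of all clusters), led by Gng7 (log2 fold change 1.04), Gng3 (0.56), Gng5 (log2 fold change -0.71) and Gnb5 (log2 fold change -0.33).

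RGS proteins speed the return of Gα to its inactive state. Of 18 measured 3 rose and 5 fell. Rgs5 rose from 5.03 ± 0.0868, under the olfactory receptor level, to 7.50 ± 0.157 (SD, n = 8 each), by 2.47 on the log2 scale as measured from this dim level, so the rise may be larger, and Rgs3 rose by 0.45. Rgs9, which pairs with Gnb5, fell by 0.96 (SE 0.0894) and Rgs7, which does so too, fell by 0.55. Of 11 receptor kinases, arrestins and RAMPs 4 rose and 4 fell. The receptor kinase gene Grk3 rose by 1.02 while Grk2 fell by 0.56, and the arrestin gene Arrb1 fell by 0.52. Ramp2, whose product joins that of Calcrl in the adrenomedullin receptor, rose by 0.93 (SE 0.0731).

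Of 16 measured genes that cyclic AMP induces through CREB or in early responses 14 fell and 1 rose (median log2 fold change -0.44). The nuclear receptor gene Nr4a1 fell by 1.81 (SE 0.155), the repressor gene Nfil3 by 1.30 (SE 0.132) and the AP-1 gene Junb by 0.92 (SE 0.117). Dusp1, a phosphatase gene of the MAP kinases, rose by 1.16 (SE 0.128). Each of these genes also responds to other signals, among them growth factors, calcium and stress, and cyclic AMP was not measured on these arrays. Of 17 effectors of cyclic AMP and calcium 6 rose and 3 fell. The phospholipase C genes Plcb1 and Plcb4 rose by 1.25 and 0.38, the inositol trisphosphate receptor gene Itpr3 rose by 0.60, and Prkar1b, a regulatory subunit of protein kinase A, fell by 0.48 (adjusted p from limma between 5.5e-09 and 0.00049 for these 4 genes).

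**Figure D4:**
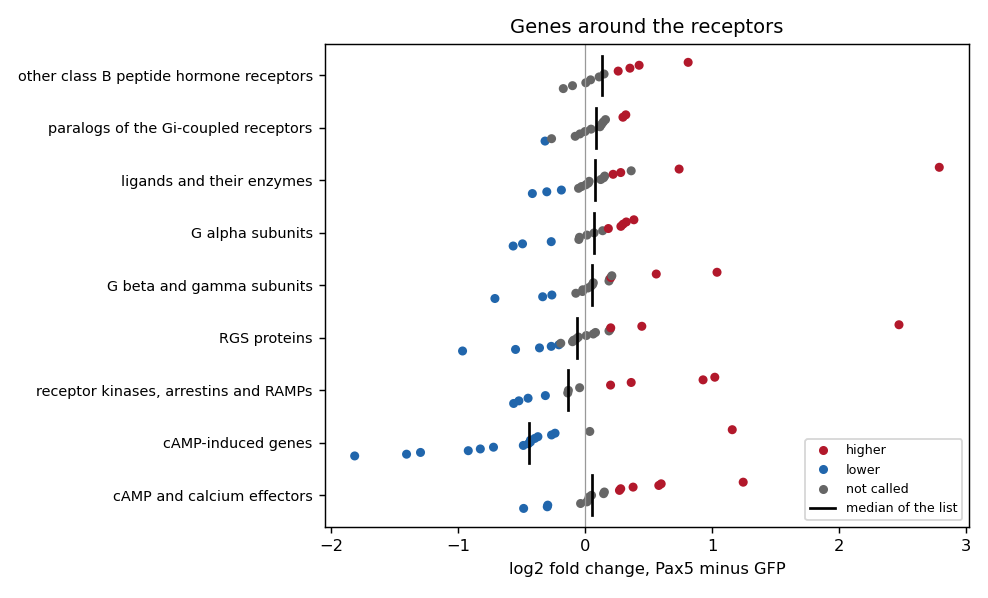
Log2 fold changes (Pax5 minus GFP, x axis) of the measured genes in 9 lists around the receptors, one point per gene coloured by its call in limma, with a black line at the median of each list. Of the cAMP-induced genes 14 of 16 were called lower, and no class B receptor was.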

How the data were processed

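Biotin-labelled total RNA of INS1 β cells was measured on 1-colour Affymetrix GeneChip arrays. The deposited table holds log2 values, which the authors computed by RMA (background correction, normalization between arrays, 1 summary per cluster, which compresses differences between dim values) in Transcriptome Analysis Console. Versions of these are not given in the sources here. Values carry 2 decimals and no filter was applied. Scanner files were not used here. The platform annotation names 15049 of 23188 clusters, and all 15049 gene numbers matched the GRCr8 annotation.

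Pax5 was compared with GFP over all clusters in limma 3.58.1 (R 4.3.3), using lmFit and eBayes with a fixed block per experiment, with Benjamini-Hochberg adjusted p (threshold 0.05). Each receptor was tested too by exact flips of the signs of 8 pairs (256 arrangements, numpy 2.4.6). A 2-tailed paired t test, named by the study, was run as an alternative and is called the methods' paired t-test. Array number limits the precision.

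The pairing comes from the labels, where a number marks an experiment. Deviations from group means of same-numbered arrays correlated between -0.749 and -0.704, and those of other GFP and Pax5 arrays between -0.0893 and 0.259. Opposed deviations widen the spread of within-number differences and the blocked fit's error.

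All receptors are named, with up to 4 genes of lowest p per list, the ligands and, for the 2 receptors of lowest p, the 3 genes most like them. The receptors and lists were chosen with earlier results of these data known. The olfactory receptor level is the 95th percentile of their mean log2 values.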

Additional observations from a re-analysis of the deposited data

Results flagged for a closer look

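No receptor array stood apart from its group. Among 154 groups of 8 arrays examined for the receptors and named genes around them, 2 had an array at a distance from the other seven that passes Dixon's 95% critical value, where chance flags about 1 in 20 groups, or 7.7 here. Prkar1b, a regulatory subunit of protein kinase A, had a log2 value of 12.00 in experiment 2 with GFP, below the other GFP arrays, of which the nearest had 12.20. The somatostatin receptor gene Sstr1 had 6.19 in the Pax5 array of experiment 3, with the nearest at 6.40.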

How the results depend on the processing

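The alternatives were a fit without the replicate block, median centring, quantile normalization, array weights, a filter on the dimmest 30% of clusters, trended and robust eBayes, the methods' paired t-test, a threshold of 0.01 and leaving out each experiment. No called result changed direction. Without the replicate block the receptors counted 3 higher and 3 lower, as with it, while 44 genes of the lists were higher and 40 lower against 32 and 36 with the pairing. The calls of Gcgr, Ptger3, Adra2a and Sstr3 held in all of these. In the paired t-test the log2 fold changes of Glp1r (0.37) and Galr1 (-0.32) were no longer past the threshold (adjusted p = 0.0522 and 0.156), which left 2 receptors higher and 2 lower. With experiments left out in turn, Galr1 lay between -0.39 and -0.25 and lost its call 4 times, the difference of Glp1r and Gipr lay between 0.34 and 0.52 and that of Sstr3 and Sstr5 between 0.43 and 0.60, both at an adjusted p of up to 0.0625 in exact permutation tests over 7 pairs. The cause of these losses was not tested. Leaving out the dimmest clusters removed Cckbr. No receptor had another cluster to try, and the pair of Cckar and Cckbr was not run. Dim signal limits Ptger3, Sstr5 and Cckbr.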
